A study of Homo sapiens with 8 samples.

Results

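Crosslink sites inside coding sequence (CDS) were taken from iCLIP of dyskerin and GAR1 in nuclei of U2OS cells, a human osteosarcoma line. A site was a member when it was called significant in any of 8 libraries, lay on the sense strand in the CDS of a basic protein-coding transcript of GENCODE 44, and was over 100 nt from every small nucleolar or Cajal body RNA (snoRNA or scaRNA). Of 1623913 called positions in the series, 629041 (38.7%) met this rule, and they fell in 8250 genes. The rule used position alone. Counts of cDNAs, base context and codon position were not part of it.

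Dyskerin is the enzyme within H/ACA ribonucleoproteins that changes uridine to pseudouridine in RNA, and GAR1 is another core protein of these particles. They are best known for the guide RNAs that lead them to ribosomal and small nuclear RNA. In iCLIP, ultraviolet light joins a protein to the RNA it touches, reverse transcription tends to stop next to that contact, and the base before the start of the cDNA is taken as the site. Light at this wavelength joins proteins to uridine more readily than to the other bases, whichever protein is studied. The CDS is read in codons of 3 bases, begins at the start codon, ends at the stop codon, and is usually made of many exons joined at splice junctions.

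All 4 groups were nuclear lysates of wild-type U2OS cells, which were exposed intact to 1500 J/m2 of light at 254 nm and then fractionated, and they differed in what was bound to the beads. There were 2 libraries each for a mouse antibody against dyskerin, a rabbit antibody against GAR1, mouse immunoglobulin run with the dyskerin set (IgG-dyskerin) and mouse immunoglobulin run with the GAR1 set (IgG-GAR1). For GAR1 the antibody and the IgG thus came from different species. Replicates carry numbers in the labels, with no word on whether they were separate cultures, so p-values measure the spread between these libraries, which may be technical. All cells came from a single line.

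Positions at which the highest counts were called are shown first, because they give the sequence that the later averages summarise. In each line the capital marks the called base in the spliced mRNA, with up to 20 bases on either side. The first 8 were the highest in dyskerin by mean cDNAs, scaled to the library total, among positions called in both dyskerin libraries, with no more than 1 for each gene.
HSP90AA1: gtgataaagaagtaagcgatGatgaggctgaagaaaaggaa
HSP90AB1: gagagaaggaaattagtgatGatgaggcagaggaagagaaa
HNRNPA2B1: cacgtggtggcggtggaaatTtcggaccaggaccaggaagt
LUC7L3: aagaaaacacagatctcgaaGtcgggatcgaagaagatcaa
NCL: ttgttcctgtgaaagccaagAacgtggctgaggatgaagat
RBM25: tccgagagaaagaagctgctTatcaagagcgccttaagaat
MT-ND6: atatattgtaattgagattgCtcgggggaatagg
SRRM2: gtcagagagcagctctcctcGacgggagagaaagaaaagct

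HSP90AA1 and HSP90AB1 encode the inducible and constitutive forms of the cytosolic chaperone HSP90. Their top positions were chr14:102084965 (minus strand, exon 5 of 11, CDS base 697) and chr6:44250324 (plus strand, exon 6 of 12, CDS base 682), on GRCh38. The HSP90AA1 position held 87 and 98 cDNAs in the dyskerin libraries, 3 and 4 in GAR1, 15 and 2 in IgG-dyskerin, and 3 and 0 in IgG-GAR1. The HSP90AB1 position held 75 and 105 in dyskerin, 4 and 9 in GAR1, 18 and 0 in IgG-dyskerin, and 5 and 0 in IgG-GAR1. Scaled to 1000000 peak cDNAs of each library, IgG-dyskerin 1 was above both dyskerin libraries. It stood at 102 against 51.4 and 52.3 for HSP90AA1 and at 123 against 44.3 and 56.0 for HSP90AB1. Both sites lay on the G of a GAU codon, number 233 and number 228 of the 2 proteins, and the windows printed above shared 31 of 41 bases. An identical run of 11 bases crossed the site. Reads with several alignments were kept by the authors, so counts of these paralogs could have been split or shared between them.

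The HNRNPA2B1 position, in the mRNA of an RNA-binding protein of heterogeneous nuclear ribonucleoprotein particles, lay at chr7:26196440 (minus strand, exon 6 of 11) and held 72 and 102 cDNAs in dyskerin, 0 and 4 in GAR1, 9 and 0 in IgG-dyskerin, and 0 in both IgG-GAR1 libraries. The LUC7L3 position, in the mRNA of a splicing factor with arginine- and serine-rich stretches, lay at chr17:50746604 (plus strand, exon 9 of 10) and held 51 and 119 in dyskerin and 17 in IgG-dyskerin 1. The NCL position, in the mRNA of nucleolin, lay at chr2:231460789 (minus strand, exon 4 of 14) with 68 and 94 cDNAs in dyskerin and 14 in IgG-dyskerin 1. All 3 were thus also called in the larger IgG library run with dyskerin. On the scale used for HSP90, that library was above both dyskerin libraries at all 3. It stood at 61.4 for HNRNPA2B1 (42.5 and 54.4 in dyskerin), 116 for LUC7L3 (30.1 and 63.5) and 95.6 for NCL (40.1 and 50.1). IgG-dyskerin 2 held 0 at each.

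The RBM25 position, in the mRNA of a splicing regulator, lay at chr14:73106073 (plus strand, exon 11 of 19) and held 41 and 98 cDNAs in dyskerin and 6 in IgG-dyskerin 1. The SRRM2 position, in the mRNA of a large protein of splicing speckles, lay at chr16:2759008 (plus strand, exon 6 of 15) and held 38 and 89 in dyskerin, 2 and 13 in GAR1, and 8 in IgG-dyskerin 1. MT-ND6, a mitochondrially encoded subunit of respiratory complex I, held 100 and 29 cDNAs at chrM:14162 (minus strand, a single exon) in dyskerin, 37 and 44 in GAR1, 21 in IgG-dyskerin 1 and 33 in IgG-GAR1 1. This mitochondrial RNA, in a nuclear preparation, was called in 6 of 8 libraries. Scaled as above, IgG-dyskerin 1 stood at 54.6 for SRRM2 (22.4 and 47.5 in dyskerin) and 143 for MT-ND6 (59.0 and 15.5). For RBM25 it stood at 41.0, between the dyskerin libraries (24.2 and 52.3). IgG-dyskerin 2 held 0 at each.

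The position of highest mean in GAR1 was in ACVR2B, the gene of an activin receptor, and it belonged to a run of neighbouring sites. It is printed with 30 bases on either side, and capitals mark the run from its first to its last position called in 7 or 8 libraries.
ACVR2B: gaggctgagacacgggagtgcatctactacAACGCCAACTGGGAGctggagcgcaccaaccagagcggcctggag

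The run covered chr3:38477331-38477345 (plus strand, exon 2 of 11, CDS bases 97 to 111). Within these 15 nt, 12 positions were called in 7 or 8 libraries, and all 8 CDS positions that were called in every library lay here. The run held 182 and 68 cDNAs in dyskerin, 349 and 380 in GAR1, 70 and 35 in IgG-dyskerin, and 347 and 64 in IgG-GAR1. As a share of all CDS cDNAs this was 0.0382% and 0.0103% in dyskerin, 19.6% and 3.82% in GAR1, 0.241% and 9.64% in IgG-dyskerin, and 32.4% and 18.7% in IgG-GAR1. Scaled to all peak cDNAs of the library, in CPM (cDNAs per 1000000 peak cDNAs), the highest values were in IgG-dyskerin 2 (4277) and IgG-GAR1 2 (5981) and the lowest in dyskerin (107 and 36.3). The antibody libraries and the IgG libraries therefore overlapped, and IgG was not lower. None of the 12 positions was followed within 50 nt by 20 consecutive bases of a short RNA of GENCODE. Among the 2739 CDS positions with 10 or more cDNAs in some library, 1, in RBM25, was.

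The other GAR1 positions chosen by the same rule were weaker.
TMEM229A: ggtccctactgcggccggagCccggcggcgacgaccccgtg
UBE2C: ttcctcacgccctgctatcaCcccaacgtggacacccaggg
DNAH7: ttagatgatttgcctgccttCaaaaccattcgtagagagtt
COL18A1: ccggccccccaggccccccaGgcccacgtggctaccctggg

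In TMEM229A, which encodes a transmembrane protein, chr7:124032348 (minus strand, a single exon) held 23 and 34 cDNAs in GAR1, 12 and 11 in dyskerin and 2 in IgG-GAR1 1. In UBE2C, a ubiquitin-conjugating enzyme of the cell cycle, chr20:45815636 (plus strand, exon 4 of 6) held 17 and 11 cDNAs in GAR1 and none in the other 6 libraries. In DNAH7, a dynein heavy chain of cilia, chr2:195808745 (minus strand, exon 53 of 65) held 8 in each GAR1 library, 2 in dyskerin 1 and 1 in IgG-GAR1 1. In COL18A1, a collagen chain, chr21:45504530 (plus strand, exon 34 of 42) held 7 and 4 in GAR1 and none elsewhere. MT-ND6 was chosen in GAR1 as well, at the position given above.

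CDS sites numbered 317496 and 413424 in the dyskerin libraries, 975 and 6655 in GAR1, 21131 and 252 in IgG-dyskerin, and 485 and 195 in IgG-GAR1. They were 35.2% and 44.7% of all sites in dyskerin, 3.93% and 12.5% in GAR1, 26.6% and 8.53% in IgG-dyskerin, and 3.22% and 7.10% in IgG-GAR1. Both dyskerin libraries were above the other 6, the nearest being IgG-dyskerin 1. By cDNAs the CDS took 28.2% and 35.2% in dyskerin, 0.305% and 0.504% in GAR1, 19.8% and 4.44% in IgG-dyskerin, and 0.362% and 3.2% in IgG-GAR1. Total peak cDNAs ranged from 8183 to 1976518, and these totals are what passed the call in each library, not sequencing depth. By CDS sites the 2 replicates of IgG-dyskerin differed most in size, which touches every comparison with that group.

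Most CDS sites were thin. A site held on average 1.5 and 1.59 cDNAs in dyskerin, 1.83 and 1.5 in GAR1, 1.37 and 1.44 in IgG-dyskerin, and 2.21 and 1.75 in IgG-GAR1. Sites with a single cDNA were between 53.3% (IgG-GAR1 2) and 75.5% (IgG-dyskerin 1) of a library's CDS sites. Of all CDS positions 81.4% were called in 1 library and 16.6% in 2. The share whose exact base was also called in its replicate was 34.4% and 26.4% in dyskerin, 22.9% and 3.35% in GAR1, 0.265% and 22.2% in IgG-dyskerin, and 2.68% and 6.67% in IgG-GAR1, where the smaller replicate of a pair has the higher share by its size.

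Positions called in both dyskerin libraries numbered 109274, and 9.45% of them were also called in an IgG library. Positions called in both GAR1 libraries numbered 223, and 62.3% of them were also called in an IgG library. The IgG libraries held 21131, 252, 485 and 195 CDS sites, far fewer than 109274, so their size capped the dyskerin share but not the GAR1 share. These 2 shares are therefore not comparable. Overlaps in this paragraph were not counted over all called positions of the series. Of the 223, 176 (78.9%) were called in both dyskerin libraries, which is 0.161% of the dyskerin set. A further 14 of the 223 were called in no dyskerin and no IgG library. From 43.6% to 76.1% of the sites of each IgG library were also in a dyskerin library.

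In dyskerin, site density was lower toward both ends of the CDS than inside it. In MANE Select transcripts (1 reference transcript a gene) with at least 1 exonic site in the library, dyskerin 1 and 2 had 3.63 and 4.92 sites per 1000 nt at 151 to 200 nt upstream of the start codon, 10.8 and 15.3 in the last 50 nt of the 5′UTR, 15.2 and 20.9 in the first 50 nt of the CDS and 20.6 and 28.2 at 150 to 199 nt inside it. At the other end the density was 16.5 and 19.3 at 51 to 100 nt before the stop codon, 9.57 and 9.74 in the last 50 nt of the CDS, 4.21 and 4.73 in the first 50 nt of the 3′UTR and 1.12 and 1.23 at 250 to 299 nt into it. The lower density thus began inside the CDS and went on past the stop codon. At the 5′ end GAR1 2 did not follow this order, with 2.98, 3.86 and 3.80 sites per 1000 nt in the first 3 bins of 50 nt of the CDS and 2.7 at 150 to 199 nt. IgG-dyskerin 1 had 3.14, 0.580, 0.335 and 0.0660 at the same 4 distances from the stop codon. GAR1 2 had 2.64, 0.980, 0.682 and 1.16, so its density at the last of these was not the lowest. A base that was coding in any transcript was counted as CDS, which removes some UTR sites from these densities. This density profile is a description of the called sites with no test.

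**Figure D1:**
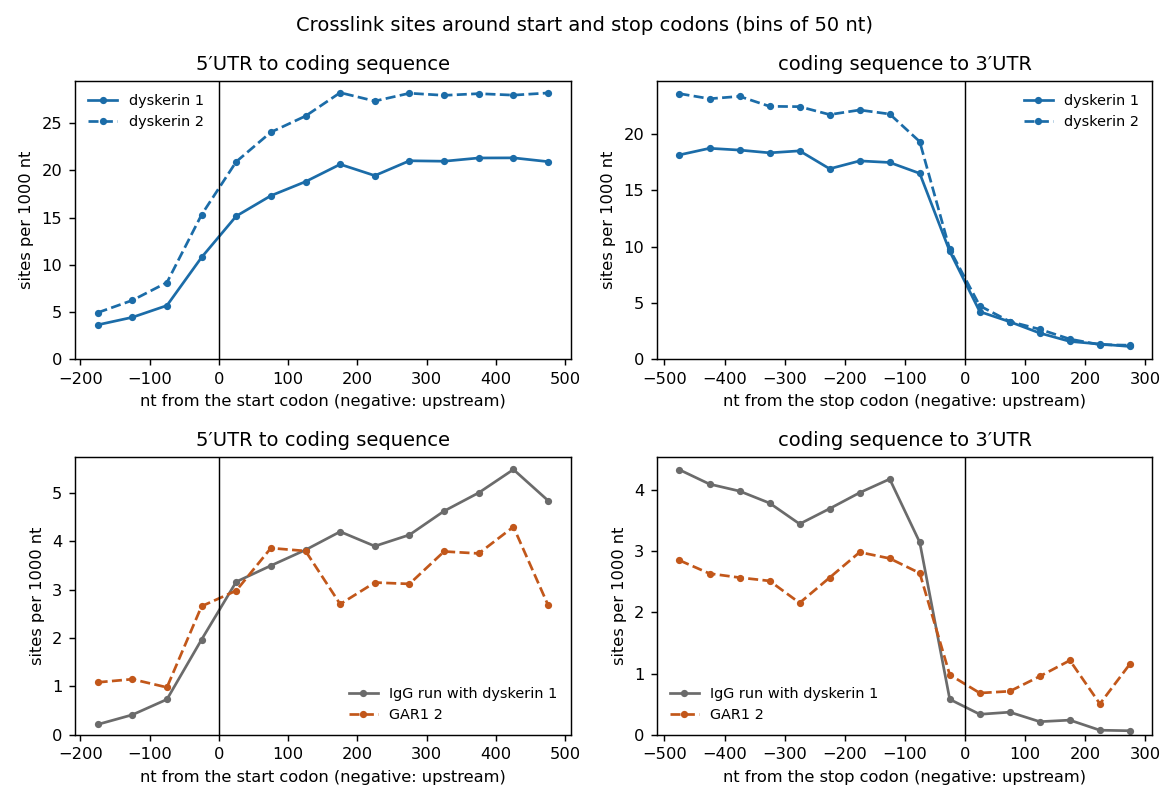
Sites per 1000 nt (vertical axes) in bins of 50 nt around the start codon (left) and the stop codon (right) of MANE Select transcripts, for both dyskerin libraries (top) and for IgG-dyskerin 1 and GAR1 2 (bottom); horizontal axes give nt from the codon. In dyskerin the density goes from 16.5 and 19.3 to 4.21 and 4.73 across the last 100 nt of the CDS and the first 50 nt of the 3′UTR.

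To ask where sites lay along the CDS, the share of sites in each place was set against an even spread, that is, the share that place holds of every CDS position of the same transcripts, each weighted by its number of sites in the library. The last decile of the CDS, its final 10%, held fewer sites than an even spread in all 8 libraries. It held 7.20% and 6.51% of sites in dyskerin, 6.46% and 5.89% in GAR1, 4.99% and 6.35% in IgG-dyskerin, and 7.01% and 5.64% in IgG-GAR1, against 9.97% to 9.98% expected. The mean difference was -3.72 percentage points (SD 0.727, n = 8; adjusted p = 0.0117, exact sign-flip permutation test over libraries, two-sided, 12 measures). That adjusted p rests on 0.00781, the smallest p that 8 libraries allow.

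The depletion was graded in dyskerin. From decile 2 to decile 4 the ratio of observed to expected sites was 1.09 to 1.13 in replicate 1 and 1.11 to 1.16 in replicate 2. It reached 0.922 and 0.894 in decile 9 and 0.721 and 0.652 in the last. Within 50 nt of the stop codon the ratio was 0.537 and 0.433 in dyskerin, 0.760 and 0.574 in GAR1, and 0.186 in IgG-dyskerin 1. Over the last 100 nt the mean difference was -1.52 percentage points (SD 1.36, n = 8, lower in 6 of 8; adjusted p = 0.0375, exact sign-flip permutation test). The call was lost without any 1 of 6 libraries, namely either dyskerin, either IgG-dyskerin, GAR1 2 or IgG-GAR1 2 (-1.54 to -1.27, adjusted p 0.0682 to 0.0750), and kept without GAR1 1 or IgG-GAR1 1.

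At the 5′ end the groups did not run alike. The first decile held 9.17% and 9.99% of sites in dyskerin, 14.1% and 13.3% in GAR1, 8.41% and 16.7% in IgG-dyskerin, and 16.1% and 17.9% in IgG-GAR1, against 10.0% expected. Both GAR1 libraries and 3 of the 4 IgG libraries were above the even spread. Over 8 libraries the difference of 3.18 percentage points (SD 3.64) did not pass (adjusted p = 0.0682, exact sign-flip permutation test). It was 11 when weighted by cDNAs (adjusted p = 0.0729), and it passed with each gene weighted equally (2.37, adjusted p = 0.0134). With sites in both replicates it was 28.73 (adjusted p = 0.0469, exact sign-flip permutation test). There the 2 libraries of a group hold the same sites, 56 in IgG-dyskerin and 13 in IgG-GAR1. Each group's value thus entered 2 times, so that p decides nothing. ACVR2B alone gave 18 of the 137 first-decile sites of GAR1 1, 13 of 42 in IgG-dyskerin 2, 17 of 78 in IgG-GAR1 1 and 13 of 35 in IgG-GAR1 2, against 17 of 29117 in dyskerin 1. Sites in the first 100 nt did not differ from the even spread in a set direction, with 4 libraries above it and 4 below (mean difference 0.44 percentage points, SD 1.41; adjusted p = 0.430, exact sign-flip permutation test).

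**Figure D2:**
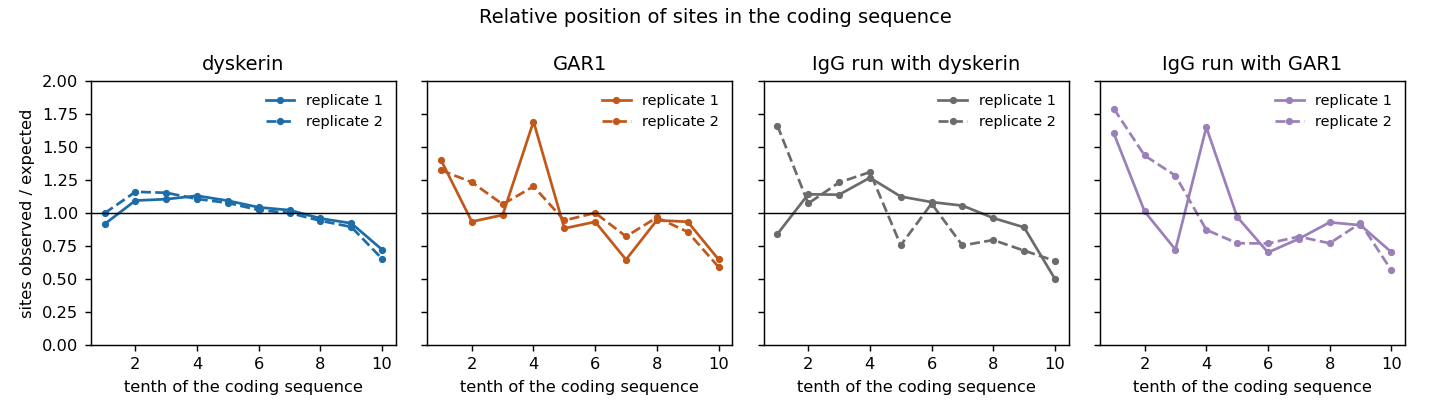
Sites observed over expected (vertical axis) in each decile of the CDS from the start codon (horizontal axis), by group, with a line for each replicate. The last decile lies below 1 in all 8 libraries, between 0.500 and 0.721.

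A peak in decile 4 of GAR1 1 (1.69) and IgG-GAR1 1 (1.65) came in large part from the HSP90 genes. HSP90AB1 and HSP90AA1 gave 45 and 27 of the 165 sites there in GAR1 1, and 21 and 21 of 80 in IgG-GAR1 1. In dyskerin 1 they gave 167 and 187 of 35867. In IgG-GAR1 2 they gave 0 of 17.

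Splice junctions marked the sharpest local change. The last 25 nt of a coding exon before a junction held 8.93% and 11% of sites in dyskerin, 7.69% and 9.39% in GAR1, 7.05% and 11.5% in IgG-dyskerin, and 5.57% and 9.74% in IgG-GAR1. The even spread gave 13.0% to 15.2%. The difference was -5.44 percentage points (SD 1.69, n = 8, lower in 8 of 8; adjusted p = 0.0117, exact sign-flip permutation test). It was steepest in the last 5 nt, where the ratio was 0.246 and 0.308 in dyskerin, 0.250 and 0.187 in GAR1 and 0.181 in IgG-dyskerin 1, and it stayed below 1 out to 30 to 34 nt from the junction in these libraries (0.937 and 0.973 in dyskerin).

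Past the junction the picture was opposite and smaller. The first 25 nt of a coding exon held 14.7% and 16% of sites in dyskerin, 14.5% and 17.8% in GAR1, 13.9% and 17.9% in IgG-dyskerin, and 17.5% and 16.4% in IgG-GAR1. Each library was above its even spread, by 1.70 percentage points on average (SD 1.13; adjusted p = 0.0117, exact sign-flip permutation test). The direction of this mean over 8 libraries turned when sites were weighted by cDNAs (-0.58) or limited to those of at least 3 cDNAs (-4.67) or in both replicates (-4.25), none of which passed. In dyskerin, bins of 5 nt in this window held 1.45 to 1.53 and 1.55 to 1.66 cDNAs a site, beside 1.5 and 1.59 over all CDS sites. At 45 to 49 nt past a junction a site held 6.67 cDNAs in GAR1 1 and 13.1 in IgG-GAR1 1. The part of single genes in the turn was not tested.

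Long coding exons held more sites than their length. Coding exon parts of 300 nt or more held 35.9% and 29.3% of sites in dyskerin, 33.0% and 27.4% in GAR1, 42.4% and 25.4% in IgG-dyskerin, and 30.3% and 22.6% in IgG-GAR1. The difference from the even spread was 2.95 percentage points (SD 2.62, higher in 7 of 8; adjusted p = 0.0208, exact sign-flip permutation test), and it was 0.40 and did not pass with each gene weighted equally. In dyskerin the ratio went from 0.936 and 0.978 in parts under 100 nt to 1.17 and 1.10 in parts of 1000 nt or more. The median coding exon length over sites was 189 and 172 nt in dyskerin.

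Sites favoured the first base of the codon. Codon position 1 held 36.9% and 36.8% of sites in dyskerin, 40.5% and 38.7% in GAR1, 38.1% and 37.3% in IgG-dyskerin, and 42.5% and 40% in IgG-GAR1, against 33.3%. The mean difference was 5.53 percentage points (SD 2.00), while position 2 was lower by -3.80 (SD 0.834) and position 3 by -1.73 (SD 1.57), each in 8 of 8 libraries (adjusted p = 0.0117 for each, exact sign-flip permutation test). The call for position 3 was lost at sites of at least 3 cDNAs (-0.88), at sites in both replicates (-0.87) and with each gene weighted equally (-1.04). The position depends on which base is called the site. With the first base of the cDNA, 1 nt downstream, the excess moved to position 2 (5.46) and position 1 was lower than expected (-1.54).

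Uridine stood out at the first codon base. A uridine at codon position 1 was called at 1.84 and 1.83 times its expected number in dyskerin, 1.78 times in GAR1 2 and 1.78 times in IgG-dyskerin 1. At position 2 the ratios were 1.28 and 1.26 in dyskerin, and at position 3 they were 1.27 and 1.25. Adenosine at position 1 was at 1.03 and 1.04 in dyskerin and at 1.44 and 1.16 in GAR1. By codon, sites in dyskerin were most enriched on the phenylalanine codon UUU (2.46 and 2.44) and the leucine codon UUA (2.26 and 2.23), and least on the glycine codon GGG (0.279 and 0.287) and the proline codon CCG (0.323 and 0.310). In IgG-dyskerin 1 the same 4 codons stood at 2.31, 2.7, 0.207 and 0.217.

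The base at the site was uridine in 29.7% of sites in both dyskerin libraries, 23.5% and 26.9% in GAR1, 27.3% and 32.9% in IgG-dyskerin, and 22.9% and 23.1% in IgG-GAR1. An even spread gave 20.4% to 22.3%. Uridine was above it in 8 of 8 libraries, by 5.73 percentage points on average (SD 3.90; adjusted p = 0.0117, exact sign-flip permutation test), and in GAR1 1 and both IgG-GAR1 libraries the expected share was within the 95% Wilson interval of the observed share (20.9% to 26.2% in GAR1 1, 19.4% to 26.8% and 17.7% to 29.5% in IgG-GAR1). Such intervals cover counting error alone. By the same test, the uridine call was lost with sites weighted by cDNAs (4.34, adjusted p = 0.145). It was also lost at sites of at least 3 cDNAs (1.63, adjusted p = 0.781) and at sites in both replicates (1.43, adjusted p = 0.688). GAR1 1, IgG-dyskerin 2, IgG-GAR1 1 and IgG-GAR1 2 held 83, 10, 40 and 14 sites of at least 3 cDNAs. The part of these small libraries was not tested. In dyskerin the uridine share rose from 27.56% and 27.51% at 1 cDNA to 39.82% and 40.04% at 10 or more. In IgG-dyskerin 1 it was 25.96% at 1, 38.31% at 5 to 9 and 15.15% at 10 or more (33 sites). In GAR1 2 it was 25.34%, 36.71% and 16% (25 sites) at these counts. The GC share of the 10 nt on either side was lower than expected in 8 of 8 libraries, by -3.50 percentage points (SD 0.486; adjusted p = 0.0117, exact sign-flip permutation test).

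The strongest departure was 1 and 2 nt downstream of the site. Uridine stood at 1.63 and 1.60 times its expected share at the next base and at 1.5 in both dyskerin libraries at the base after, while guanosine stood at 0.408 and 0.402 and then at 0.510 and 0.481. IgG-dyskerin 1 had 1.57 and 1.62 for uridine and 0.402 and 0.375 for guanosine, and GAR1 2 had 1.39 and 1.56 and 0.454 and 0.487. At 6 nt downstream guanosine was at 1.23 and 1.22 and uridine at 0.755 and 0.783 in dyskerin. At 6 nt upstream guanosine was at 1.02 and uridine at 0.982 in dyskerin 1. A relation to the codon was not tested. Upstream of the site, beyond 2 nt, the uridine ratios at 3 and 4 nt were 1.01 and 1.02 in both dyskerin libraries.

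**Figure D3:**
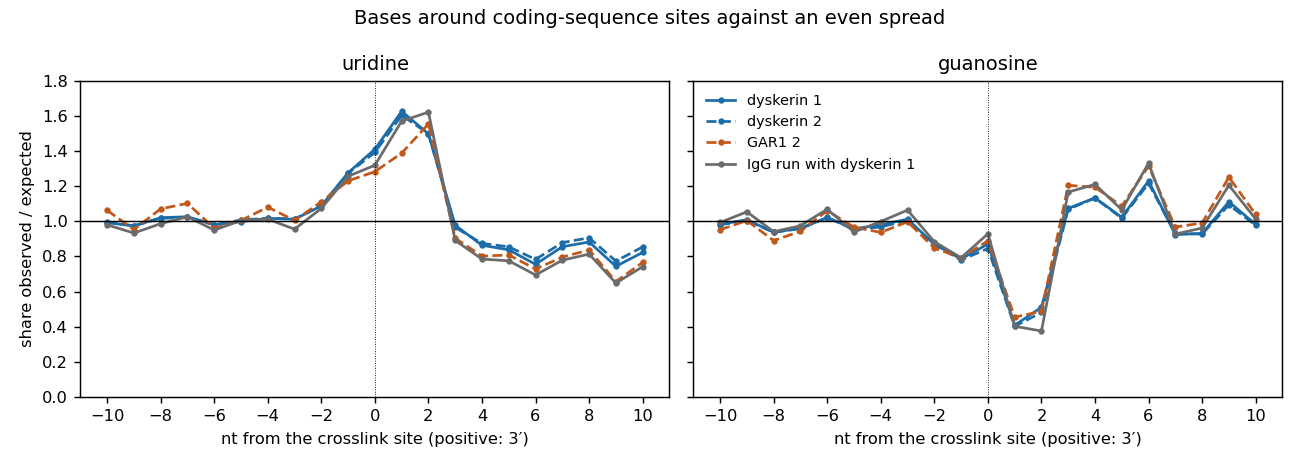
Share of uridine (left) and guanosine (right) at each offset from the CDS site, observed over expected (vertical axes), against nt from the site (horizontal axes, positive toward the 3′ end), for the 4 libraries with over 1000 CDS sites. At the next base uridine lies between 1.39 and 1.63 and guanosine between 0.402 and 0.454.

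Pentamers centred on the site followed the same bases. In dyskerin the most enriched were UUUAC (4.68 and 4.88 times expected), UUUUC (4.83 and 4.69) and AUUUC (4.68 and 4.54). The least were GCCGG (0.0740 and 0.0343) and CGGGG (0.0845 and 0.0556). In IgG-dyskerin 1 the first 3 stood at 5.98, 4.74 and 4.71. Among motifs of pseudouridine synthases that act without a guide RNA, TNTAA or TNTAG (PUS7) was searched on the sense strand of the CDS and counted where any of its bases was the site. It was found at 3.66% and 3.73% of sites in dyskerin, where 2.14% and 2.23% of all CDS positions held it. In IgG-dyskerin 1 it was at 4.12% of sites (2.27% of all positions) and in GAR1 2 at 4.37% (2.15%). GTTCNANNC (TRUB1) was at 0.182% and 0.166% of sites in dyskerin against 0.143% and 0.136%, and TTTTT, a run of uridine with no relation to an enzyme, at 1.02% and 0.994% against 0.315% and 0.331%. A match is a description of letters and not of modification, and the ratio was larger for the uridine run than for either motif in dyskerin.

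None of 6 measures of CDS sites differed between the 4 antibody and the 4 IgG libraries. The uridine excess was 0.73 percentage points higher with antibody (adjusted p = 0.926), the last decile 0.52 higher (adjusted p = 0.926), sites within 100 nt of the stop codon 0.89 higher (adjusted p = 0.926), codon position 3 0.38 higher (adjusted p = 0.926), GC -0.16 (adjusted p = 0.926) and exon parts of 300 nt or more 0.05 higher (adjusted p = 1), by an exact permutation test, two-sided. The smallest p this design allows is 0.0286, and with 2 libraries against 2 it is 0.333, so single groups were not tested. A p that misses the threshold does not show that the sites of antibody and IgG are alike.

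CDS sites were also compared with 3′UTR and intron sites of the same library. A CDS site held 1.5 and 1.59 cDNAs in dyskerin, against 1.36 and 1.37 in the 3′UTR and 1.41 and 1.38 in introns. Over 8 libraries the log2 ratio was 0.07 (SD 0.236) against the 3′UTR and -0.17 (SD 0.376) against introns (adjusted p = 0.477 for both, exact sign-flip permutation test over 4 comparisons). The uridine excess of CDS sites was below that of 3′UTR sites by -9.84 percentage points (SD 15.9, lower in 7 of 8) and above that of intron sites by 1.19 (SD 4.75, higher in 5 of 8), neither of which passed (adjusted p = 0.477). IgG-dyskerin 2, with 39 sites in the 3′UTR, was the library that ran opposite.

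In dyskerin, sites with more cDNAs had a stronger context. In dyskerin 1 the share followed by uridine was 31.7% (95% Wilson interval 31.5% to 31.9%) at sites of 1 cDNA and 47.7% (44.8% to 50.7%) at the 1110 sites of 10 or more. In dyskerin 2 it was 31.7% (31.5% to 31.8%) and 44% (42.0% to 46.0%, 2355 sites). The share followed by guanosine went from 12.3% and 12.2% to 1.98% (1.31% to 2.98%) and 2.00% (1.5% to 2.64%). These sites share libraries and genes, so the intervals understate the error.

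Codon position 1 went the same way, from 36.1% and 36.0% at sites of 1 cDNA to 46.0% (43.1% to 49%) and 45.0% (43.0% to 47.0%) at those of 10 or more. The top positions printed earlier show a further feature of sites with high counts. The 4 bases after the site were ATGA or ATGG, as in both HSP90 windows, at 2.28% and 2.32% of sites with 1 cDNA and at 11.5% (9.78% to 13.5%) and 12.4% (11.1% to 13.8%) of those with 10 or more, against 1.17% and 1.22% of all positions. TCGA or TCGG, as in the HNRNPA2B1, LUC7L3 and MT-ND6 windows, went from 0.762% and 0.674% to 7.21% and 5.86%, against 0.332% and 0.326%. Both pairs were picked after the printed windows had been seen and were not tested.

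In IgG-dyskerin 1 the share with ATGA or ATGG next was 3.33% (3.06% to 3.62%) at 15955 sites of 1 cDNA, 9.28% (7.80% to 11%) at 1261 sites of 3 to 4 and 30.3% (17.4% to 47.3%) at 33 sites of 10 or more. The share was thus larger at higher counts with IgG too. There, uridine at the next base went from 30.8% to 38.9% at 3 to 4 cDNAs and was 21.2% (10.7% to 37.8%) at 10 or more, where adenosine stood at 66.7%. In GAR1 2 sites of 10 or more cDNAs did not follow those of 5 to 9. Codon position 1 was at 37.6% of 4790 sites of 1 cDNA, 51.9% (41.1% to 62.6%) of 79 sites of 5 to 9 and 28% (14.3% to 47.6%) of 25 sites of 10 or more, and ATGA or ATGG was next at 3.44%, 17.7% and 4% of these sites. The ACVR2B run alone held 380 cDNAs at 12 positions in GAR1 2, and its part of the 25 sites was not counted.

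**Figure D4:**
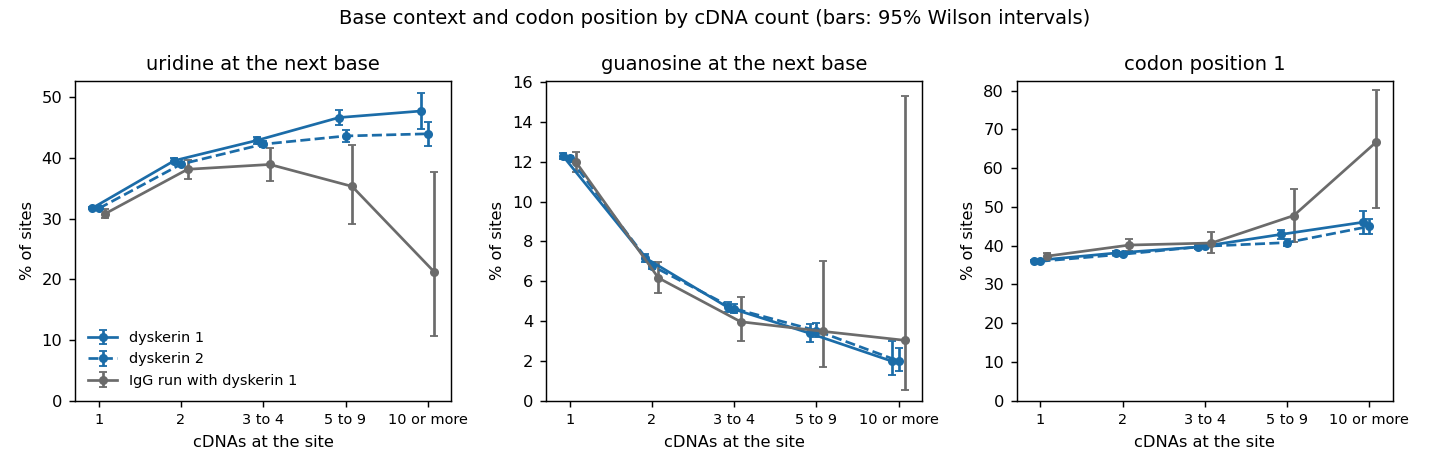
Percent of CDS sites (vertical axes, from 0) with uridine or guanosine at the next base or at codon position 1, by the number of cDNAs at the site (horizontal axes), for both dyskerin libraries and IgG-dyskerin 1; bars are 95% Wilson intervals. Guanosine at the next base goes from 12.3% and 12.2% to 1.98% and 2.00% in dyskerin.

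By gene, CDS cDNAs were spread over 6870 and 7048 genes in dyskerin, and the top 10 genes held 9.81% and 7.31% of them. In GAR1 277 and 851 genes had a CDS site and the top 10 held 45.1% and 26%. IgG-dyskerin had 1943 and 133 genes (18.1% and 26.4% in the top 10), and IgG-GAR1 183 and 122 (56.7% and 33.9%). Values per gene are CPM unless a count is given, and they follow RNA abundance and CDS length as well as contact.

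The coding sequences of the 12 genes of highest CDS signal in dyskerin ran from 1023 nt to 23454 nt. DST, which encodes the cytolinker dystonin, held 9321 and 11265 CDS cDNAs in dyskerin, 34 and 217 in GAR1, 1059 and 8 in IgG-dyskerin, and 6 and 0 in IgG-GAR1. Its level in dyskerin was 5755 ± 356 CPM (SD, n = 2). The CPM of DST in IgG-dyskerin 1 (7228) was above both dyskerin libraries, and in GAR1 it was 58.1 and 110.

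AHNAK, a giant scaffold protein of the cell periphery, held 8586 and 2471 cDNAs in dyskerin, so that its 2 replicates differed more than those of DST (3193 ± 2652 CPM, SD, n = 2). It held 0 and 40 in GAR1 and 841 and 0 in IgG-dyskerin. PLEC, the cytolinker plectin, held 6787 and 4330 in dyskerin, 0 and 316 in GAR1, and 470 and 0 in IgG-dyskerin. MKI67, the chromosome coat protein known as the marker Ki-67, held 5235 and 4951 in dyskerin, 10 and 70 in GAR1, and 651 and 0 in IgG-dyskerin. By CPM, IgG-dyskerin 1 was above both dyskerin libraries for AHNAK (5740 against 5069 and 1318) and MKI67 (4443 against 3090 and 2640). For PLEC (3208) it lay between them (4007 and 2309).

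SRRM2 held 4082 and 5147 cDNAs in dyskerin, 41 and 301 in GAR1, and 332 and 0 in IgG-dyskerin. CENPF, a kinetochore protein, held 3180 and 3656 in dyskerin, 0 and 31 in GAR1, and 347 and 4 in IgG-dyskerin. ANKRD11, a chromatin regulator, held 2511 and 2523 in dyskerin, 0 and 14 in GAR1, and 346 and 0 in IgG-dyskerin. In these 3 the dyskerin replicates lay close in CPM, at 2577 ± 237, 1913 ± 51 and 1414 ± 96.9 (SD, n = 2). The CPM in IgG-dyskerin 1 was above both dyskerin libraries for CENPF (2368) and ANKRD11 (2362) and below both for SRRM2 (2266).

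NCL held 2523 and 4376 cDNAs in dyskerin, 1 and 0 in GAR1, 454 and 6 in IgG-dyskerin, and 3 and 6 in IgG-GAR1. EIF3A, the largest subunit of initiation factor eIF3, held 1734 and 3211 in dyskerin, none in GAR1, and 252 and 4 in IgG-dyskerin. KTN1, the kinesin receptor kinectin, held 2185 and 4326 in dyskerin and 30 and 149 in GAR1. RBM25 held 2252 and 3747 in dyskerin, 12 and 118 in GAR1, 410 and 6 in IgG-dyskerin, and 14 and 1 in IgG-GAR1. All 4 were lower in dyskerin 1 than in dyskerin 2, by cDNAs and by CPM.

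HNRNPA2B1 had the shortest CDS of the 12 genes of highest mean CPM, 1023 nt, and held 2285 and 2694 cDNAs in dyskerin, 17 and 319 in GAR1, 298 and 8 in IgG-dyskerin, and 27 and 0 in IgG-GAR1. Its density of called sites was 491 and 516 per 1000 nt in dyskerin, so about every other base was called. DST had 204 and 231 and KTN1 280 and 408 on the same scale. ACTB, the cytoplasmic actin, held 740 and 998 cDNAs in dyskerin and 4 and 132 in GAR1, at 316 and 385 sites per 1000 nt. EEF2, the elongation factor that moves the ribosome along the mRNA, held 232 and 345 in dyskerin and none in GAR1, at 46.6 and 68.8 sites per 1000 nt. The CPM of HNRNPA2B1 in IgG-dyskerin 1 (2034) was above both dyskerin libraries (1349 and 1436). That of ACTB (410) and EEF2 (88.7) was below both.

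Genes that ranked high in GAR1 included 2 whose mean CPM there was above that in dyskerin. ACVR2B led GAR1 with 380 and 400 cDNAs (649 and 202 CPM), against 201 and 70 in dyskerin (119 and 37.3 CPM), and stood at 498 and 4522 CPM in IgG-dyskerin and 1277 and 6448 CPM in IgG-GAR1. The other, MT-ND6, held 114 and 344 cDNAs in GAR1 (195 and 174 CPM) and 305 and 204 in dyskerin (180 and 109 CPM). HSP90AB1 held 87 and 191 in GAR1 and 1743 and 2843 in dyskerin. The MT-ND6 levels of GAR1 and dyskerin replicate 1 lay close together, and those of HSP90AB1 did not overlap (149 and 96.6 CPM against 1029 and 1516).

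**Figure D5:**
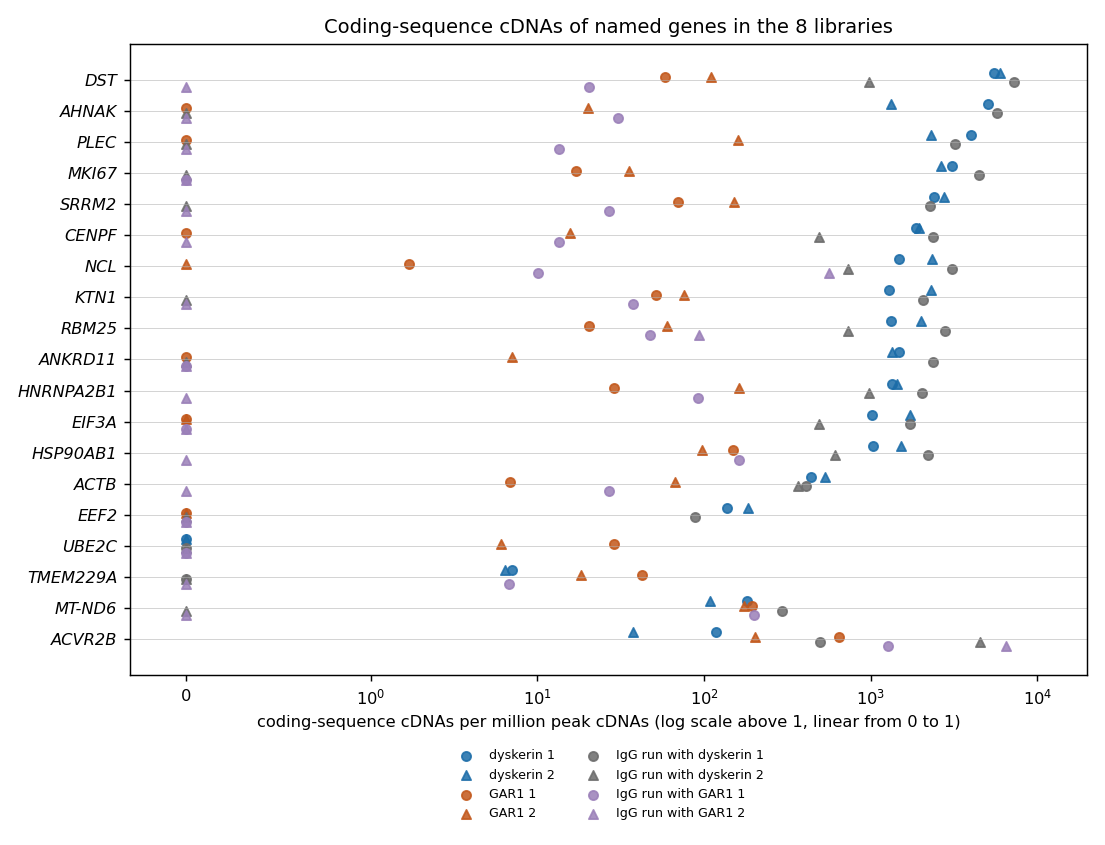
CDS level of the named genes in CPM (horizontal axis, logarithmic above 1 and linear from 0 to 1) in the 8 libraries; circles are replicate 1 and triangles replicate 2. IgG-dyskerin 1 lies with dyskerin for most genes, and ACVR2B is highest in the IgG libraries, at 4522 and 6448 in the smaller ones.

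The gene lists took small shares of CDS cDNAs. Transcripts of SR and speckle proteins, which bind exons and shape splicing, were 3.51% and 3.66% of CDS cDNAs in dyskerin, 5.72% and 7.79% in GAR1, 6.2% and 2.20% in IgG-dyskerin, and 3.27% and 0.292% in IgG-GAR1, and all 24 had a CDS site in both dyskerin libraries. Cytoskeleton and matrix transcripts were 4.13% and 3.57% in dyskerin and 0.449% and 11.2% in GAR1, so the GAR1 replicates lay on both sides of dyskerin. Chaperone transcripts were 1.57% and 1.49% in dyskerin, 8.75% and 4.07% in GAR1, 3.80% and 5.51% in IgG-dyskerin, and 8.04% and 0% in IgG-GAR1.

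Transcripts of nucleolar and H/ACA proteins were 2.26% and 2.05% in dyskerin, 1.07% and 0.874% in GAR1, and 4.59% and 3.31% in IgG-dyskerin. Translation factors were 1.54% and 1.8% in dyskerin and 1.29% and 1.46% in GAR1. Cytosolic ribosomal proteins, among the most abundant mRNAs of a growing cell, were 0.367% and 0.405% in dyskerin and 0.449% and 0.462% in GAR1, with sites in 52 and 54 of 88 genes in dyskerin. Glycolysis genes were 0.288% and 0.263% and replication-dependent histones 0.0489% and 0.0499% in dyskerin. None of these shares was tested.

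To compare genes between groups, cDNAs of every CDS, UTR and intron part of a protein-coding gene and of every non-coding gene were tested together with the edgeR quasi-likelihood F test. Of 8113 features tested, 3978 were CDS. No feature passed in dyskerin against IgG-dyskerin (0% of 8113 called higher and 0% lower), and the smallest edgeR adjusted p among CDS features was 0.181. Before adjustment, at p under 0.05, edgeR had 1501 CDS features higher and 2 lower, but 0 in either direction with a replicate block. Without dyskerin 1 or dyskerin 2, only 573 and 574 CDS features reached the minimum count for testing. Most of the 3978 thus reached it through the 2 dyskerin libraries alone, and the filter favoured features higher in dyskerin. Features of all kinds were not counted at this p, so 1501 and 2 are no result about CDS features. DESeq2 called 0 CDS features (0% of all features) and had 0 in either direction before adjustment. Both sides were nuclear lysates of the same wild-type line and differed in what was bound to the beads. Total peak cDNAs were 1693951 and 1875459 in dyskerin and 146514 and 8183 in IgG-dyskerin, and this unequal size limits the contrast.

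In GAR1 against IgG-GAR1 no feature passed in edgeR (0% higher and 0% lower), with a smallest CDS adjusted p of 0.417. Before adjustment it had 139 CDS features higher and 3 lower, a balance that turned to 7 and 114 with scaling to total cDNAs, 10 and 48 at a minimum of 50 counts, 0 and 47 without IgG-GAR1 1, 1 and 18 of 573 tested without dyskerin 1 and 1 and 20 of 574 tested without dyskerin 2. It was 73 and 81 with no filter beyond 1 count, 2 and 0 with a replicate block, 6 and 3 without GAR1 2 and 475 and 0 without GAR1 1. Features of all kinds were not counted before adjustment, so these counts are no result about CDS features. Without GAR1 1 edgeR called 132 CDS features higher, 3.32% of those tested, beside 11.3% of all features. DESeq2 called 26 CDS features higher (0.654%) and 2 lower (0.0503%), beside 1.04% and 0.173% of all features.

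In dyskerin against GAR1, edgeR called 3199 CDS features higher in dyskerin, 80.4% of those tested, beside 68.8% of all 8113 features, and 2 lower (0.0503%) beside 2.92%. Of the 3199, 3168 had no cDNA in either GAR1 library. Such features reached the minimum of 10 counts in 2 libraries without GAR1, so their direction was set by the filter and their number is no result. Of the 810 tested CDS features with a cDNA in GAR1, 31 (3.83%) were called higher and 2 lower (0.247%), beside 2.73% and 9.12% of the 2598 such features of all kinds. A cDNA in GAR1 does not lift the limit of the filter. NCL and EIF3E, with 1 each, were among the 31 and reached the minimum without GAR1, and the 2 lower reached it through GAR1 alone. The median fitted log2 difference over all features was 5.94.

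The TMM factors were 1.24 and 1.23 for dyskerin and 0.672 and 0.0603 for GAR1. No CDS feature was called higher without GAR1 1 or with a replicate block, and none was called lower with the block or in DESeq2. With scaling to total cDNAs 3972 of 3978 were called higher (99.8%, beside 92.7% of all features). In DESeq2 2122 were (53.3%, beside 45.1% of all features), and at a minimum of 50 counts 1263 of 1806 (69.9%, beside 57.0%). Without dyskerin 1 or 2 fewer CDS features reached the minimum (573 and 574). Their median fitted log2 difference was 5.89 and 5.06, beside 4.06 and 3.67 over all features.

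The 5 features of smallest adjusted p were CDS of modest count with none in GAR1 or IgG, which were tested through the dyskerin libraries alone and are given as a description. RBBP5, a subunit of histone methyltransferase complexes, held 12 and 72 cDNAs in dyskerin, and PMEPA1, a membrane protein that dampens TGF-beta signals, held 11 and 78. ZWILCH, of the kinetochore, held 18 and 66, SENP7, a SUMO protease, 18 and 69, and CCDC7 20 and 65. Against the GAR1 floor of 3 counts over the 2 libraries these were at least 20.1, 21.3, 20.1, 20.8 and 20.3-fold higher in CPM. The median over all tested CDS features on this scale was 4.61 in log2, and all 5 lay below it. On the same scale EIF3A was at least 1183-fold higher and EEF2 at least 138-fold, with cDNAs in IgG-dyskerin as well. NCL, at 1 cDNA in GAR1, had a log2 difference of 9.85 (SE 3.65, edgeR adjusted p = 0.0143), which is 3.91 above the median of all features, and the call was lost without GAR1 1 and with the block. NCL too reached the minimum without GAR1 and its fit rests on that 1 cDNA, so its call is a description.

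The 2 CDS features called lower in dyskerin were UBE2C and DNAH7, and neither passed with a replicate block, while DESeq2 gave no adjusted p for either. UBE2C held 17 and 12 cDNAs in GAR1 and none in the other 6 libraries, at least 13.5-fold higher in GAR1 against the dyskerin floor of 3 counts, and it too was tested through the group where it is high. DNAH7 held 13 and 15 in GAR1 and 5 and 0 in dyskerin (log2 difference -5.67, SE 1.88, edgeR adjusted p = 0.00878). Its call was also lost without dyskerin 2. Like UBE2C, DNAH7 reached the minimum through the GAR1 libraries alone. Its direction was thus set by the filter, and its call is a description. ACVR2B (log2 difference -4.92, edgeR adjusted p = 0.0963) and TMEM229A (-4.85, edgeR adjusted p = 0.0727) did not pass.

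The scaling changed the calls of most CDS features that did not pass with TMM. Here 4 named genes with cDNAs in all libraries of both groups serve as examples. Mean CPM in dyskerin and GAR1 were 2577 and 111 for SRRM2, 1272 and 123 for HSP90AB1, 1393 and 95.2 for HNRNPA2B1 and 484 and 36.8 for ACTB. With TMM the fitted log2 differences were 0.83, 0.34, -0.10 and -0.34, with SE above 2.3, and none passed. With scaling to total cDNAs they were 4.69, 3.54, 4.02 and 3.84, and all 4 passed (edgeR adjusted p = 0.00123, 0.0145, 0.00627 and 0.0122). That scaling called 3972 of 3978 CDS features higher, so passing under it does not set these 4 apart. All 4 were also higher in dyskerin in DESeq2 (adjusted p = 0.0205, 0.0215, 0.0126 and 0.0152).

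Over the gene lists, 106 of 178 tested CDS had no cDNA in GAR1. Of the other 72, 2 were called higher in dyskerin, NCL and the initiation factor subunit EIF3E, each with 1 cDNA in GAR1, beside 3.83% of CDS features with a cDNA in GAR1. Both reached the minimum without GAR1, so these 2 calls are a description. Tested members with a GAR1 cDNA were 21 of 35 cytoskeleton and matrix genes, 13 of 24 SR and speckle genes, 10 of 21 chaperones, 10 of 32 cytosolic ribosomal protein genes, 8 of 26 translation factors, 5 of 20 nucleolar and H/ACA protein genes, 4 of 14 glycolysis genes and 1 of 6 histone genes. No list member was called lower.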

How the data were processed

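The deposited values are counts of cDNAs at significant crosslink sites, 1 nt wide, in 8 libraries. Per the study methods the authors ran iMaps, with FastQC 0.11.9, Cutadapt (no version stated in the sources used here), STAR 2.7.0e on GRCh38 with GENCODE 27, and iCount (cDNA counts, up to 50 alignments, sites called in each library by itself at a false discovery rate of 0.05). Cluster files were not used. Here sites were assigned by strand to GENCODE 44, MANE Select or canonical transcript first, and snoRNAs came from GENCODE and RefSeq. Expected values are exact sums over CDS positions. Tests were exact permutation tests and edgeR 4.0.16 with TMM (R 4.3.3), keeping features of at least 10 counts in 2 libraries, with Benjamini-Hochberg adjustment over all features and a threshold of 0.05. DESeq2 1.42.0 was an alternative. The permutation measures and edgeR were tested on simulated data. Named genes were the 12 and 8 of highest mean CDS CPM in dyskerin and GAR1, ACTB, EEF2, SRRM2, and up to 5 of smallest adjusted p in each direction. Named positions were the top 8 and 6. An alternative without ACVR2B and mitochondrial genes was added after the data had been seen. Members and lists were chosen with earlier results of these data known.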

Additional observations from a re-analysis of the deposited data

Results flagged for a closer look

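Sites in the first decile of the CDS, observed minus expected in percentage points, were below the even spread in both dyskerin libraries (-0.849 and -0.0278) and above it in both GAR1 libraries (4.02 and 3.25), so the 2 groups lay on opposite sides of 0. Within 100 nt of the start codon the same difference was -0.721 and -0.461 in dyskerin and 0.117 and 0.463 in GAR1. In the IgG libraries it was -1.01 and -0.0716 in IgG-dyskerin and 2.41 and 2.76 in IgG-GAR1. These differences between groups were not tested, since 2 libraries against 2 cannot give a p below 0.333. ACVR2B sites of the gene as a whole were 18 of the 137 first-decile sites of GAR1 1 and 18 of 883 in GAR1 2, and their part in the difference was not tested.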

How the results depend on the processing

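Of 204 recomputed differences from the even spread, 176 kept their direction and their side of the threshold, as did 90 of 108 antibody minus IgG differences and 38 of 40 comparisons with the 3′UTR or introns. Values below are percentage points unless named. Weighted by cDNAs, the stop codon window (-1.51) and uridine (4.34) no longer passed, the 25 nt after a junction reversed (-0.58), and antibody minus IgG for GC reversed (0.12). With at least 3 cDNAs a site, nothing passed: last decile -4.69, stop codon window -1.98, exon parts of 300 nt or more 3.81, before a junction -8.16, codon positions 8.62, -7.74 and -0.88, uridine 1.63, GC -2.58, and the 25 nt after a junction reversed (-4.67), as did antibody minus IgG for codon position 3 (-2.38) and GC (1.09) and CDS minus intron uridine (-3.53). With sites in both replicates, the first decile passed (28.73), and codon position 3 (-0.87) and uridine (1.43) did not. The 2 libraries of a group hold the same sites there, so each group's value entered 2 times and passing decides nothing. The 25 nt after a junction (-4.25) and antibody minus IgG for codon position 3 (-5.68) reversed in that setting. With genes weighted equally, the first decile passed (2.37), exon parts (0.40) and codon position 3 (-1.04) did not, and antibody minus IgG for exon parts (-1.11) and codon position 3 (-1.35) and the log2 ratio of cDNAs per site over the 3′UTR (-0.031) reversed. Moved by 1 nt, codon positions 1 (-1.54) and 2 (5.46) reversed. Over 500 nt from a snoRNA, antibody minus IgG for exon parts was -0.12. Leaving out 1 library gave -1.82 to -1.27 for the stop codon window and, for antibody minus IgG, -1.09 to 1.60 for exon parts, -0.88 to 2.82 for uridine, -0.39 to 0.082 for GC and -0.33 to 1.27 for codon position 3. Without ACVR2B and mitochondrial genes, an alternative chosen after seeing the data, none of 18 values changed side or direction.

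Replicate numbers did not pair the libraries by the correlation of deviations (0.0886, -0.0327 and 0.0964 for dyskerin and its IgG, GAR1 and its IgG, and dyskerin and GAR1). With a replicate block, edgeR called 0 CDS features in dyskerin against GAR1 in either direction, and the 6 antibody minus IgG differences kept theirs. CDS features called higher in dyskerin against GAR1 numbered 1263 of 1806 at 50 counts, 3972 of 3978 with total scaling, 2122 in DESeq2 and 0 to 3818 with 1 library left out; those lower numbered 12 with no filter, 0 in DESeq2 and 1 to 4 with 1 left out. In GAR1 against IgG-GAR1, DESeq2 called 26 higher and 2 lower (84 and 14 of all features), and edgeR 0 to 132 higher with 1 left out. Scaling to total cDNAs put the median log2 difference of all features at 6.65 in place of 5.94. Log2 differences that reversed were those of MT-ND6 in DESeq2 (1.82), SRRM2 (-0.12 to 4.94 with 1 library left out), HSP90AB1 (-1.04 at 50 counts, -0.48 to 2.84 with 1 left out), ACTB (3.84 with total scaling, 1.27 with no filter, 5.88 in DESeq2, -1.34 to 5.86 with 1 left out) and HNRNPA2B1 (4.02, 1.51 and 6.05 under the same settings, -1.09 to 5.32). The causes were not tested. Libraries with 195 to 975 CDS sites limit every value over 8 libraries.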
